A study of Mus musculus with 20 samples.

Results

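The genes described here are a list of 36 for the uptake and oxidation of fatty acids in mouse hearts, compared between a rapamycin diet and a control diet. They cover uptake (4 genes), activation (2), the carnitine shuttle (6), acyl-CoA dehydrogenases (7), hydration, the second oxidation and thiolysis (6), auxiliary enzymes (4), electron transfer (3) and peroxisomal enzymes (4). They were taken by gene symbol from a count table of 34291 rows, and all 36 were found, Eci1 and Eci2 under the older symbols Dci and Peci. All 36 also passed the filter on low counts. The list was given by name, and it was drawn up with earlier results of these data known.

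Mammalian heart muscle draws much of its energy from long-chain fatty acids. These enter the cell through carriers such as CD36, are joined to coenzyme A, and pass into mitochondria as carnitine esters. Inside, a repeating cycle of dehydrogenation, hydration, a further dehydrogenation and thiolysis shortens the chain. Electrons of the first dehydrogenation reach the respiratory chain through the electron-transferring flavoprotein. Auxiliary enzymes move or remove the double bonds of unsaturated chains, and peroxisomes shorten chains that mitochondria handle poorly.

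The data are polyadenylated RNA from whole frozen hearts of C57BL/6 mice, with 1 library a mouse. From the age of 24 months, 10 mice ate a diet with 14 ppm rapamycin, an inhibitor of the mTOR kinase, and 10 ate a control diet. Both groups were kept on their diet for 3 months, so all hearts were taken at 27 months. No genetic change is named in the labels, and neither sex nor housing is given there.

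Totals ran from 7039514 to 10594335 counts in the control libraries and from 8525162 to 12458309 in the rapamycin libraries. Libraries are named below by diet and label number, such as control 19. Control 19 had the lowest total and stood apart in its makeup: lung epithelial markers summed to a CPM (read count scaled to a library's total) of 28090 there, against at most 363 in any other control library and 126 in any rapamycin library. Its 17 cardiomyocyte markers, among them Myh6, Tnnt2 and Actc1, summed to 35630 CPM. The other controls ranged from 76560 to 97150 CPM on this sum, and the rapamycin libraries from 80210 to 96830. Results are therefore given with and without control 19, and the plot of fold changes by step shows both for all 36 genes. Macrophage markers also differed between the diets: 8 of 9 fell with rapamycin, against 2.68% of all genes tested.

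Of the 36 genes, 7 rose with rapamycin and 0 fell, at an adjusted p under 0.05 in edgeR's quasi-likelihood test over all 13940 genes tested. Of all genes tested 3.36% passed in either direction, and 0.689% rose. The 7 are Acadm, Hadha, Hadhb, Hadh, Acaa2, Ech1 and Decr1, all enzymes that act after the carnitine shuttle. The threshold does not confine the difference to their steps. The shuttle, with 0 genes called, had a median log2 fold change of 0.34, and the acyl-CoA dehydrogenases, with 1 called, one of 0.25. Without control 19 the count of genes that rose was 8, with Acadvl added, against a background of 1.05%. At an unadjusted p under 0.05, 23 of the 36 were higher with rapamycin and 0 lower, where 8.21% of all genes were higher at that level. The fitted difference lay above 0 for 34 genes and below 0 for Cpt1a and Decr2, while 47.5% of all genes lay above 0. The median log2 fold change of the 36 genes was 0.30, or 0.24 without control 19. The same median over all genes was -0.0098, and 0.0047 without control 19. Scaled by library totals alone, the median of all genes shifted to -0.13 and the share of rises among all calls from 20.5% to 3.6%. On that scale 6 of the 36 genes rose, all of the 7 but Hadhb, against 0.344% of all genes. The list's own median was 0.18, which is 0.31 above that of all genes. At an unadjusted p under 0.05, 17 of the 36 were then higher and 1 lower, where 30.7% of all genes passed that level in either direction. The number of genes above 0 was 30 of 36, against 19.1% of all genes.

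For each of the 36 genes the 2 diets overlapped: no gene had each rapamycin library above each control library, a pattern seen in 0.0143% of all genes. In whole-heart RNA, fewer cells of a type and less RNA per cell cannot be told apart. The cardiomyocyte markers differed in the same direction as the list: 17 of 17 had a fitted difference above 0, with a median log2 fold change of 0.30 (0.22 without control 19). In edgeR 0 of the 17 passed the test on all 20 libraries, where 3.36% of all genes passed. At an unadjusted p under 0.05, 9 of the 17 were higher, where 8.21% of all genes were. Myl2 and Tpm1 rose without control 19, where 1.05% of all genes rose. DESeq2 called 1 of the 17 and limma voom 7, where the tools called 2.31% and 3.00% of all genes higher.

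**Figure D1:**
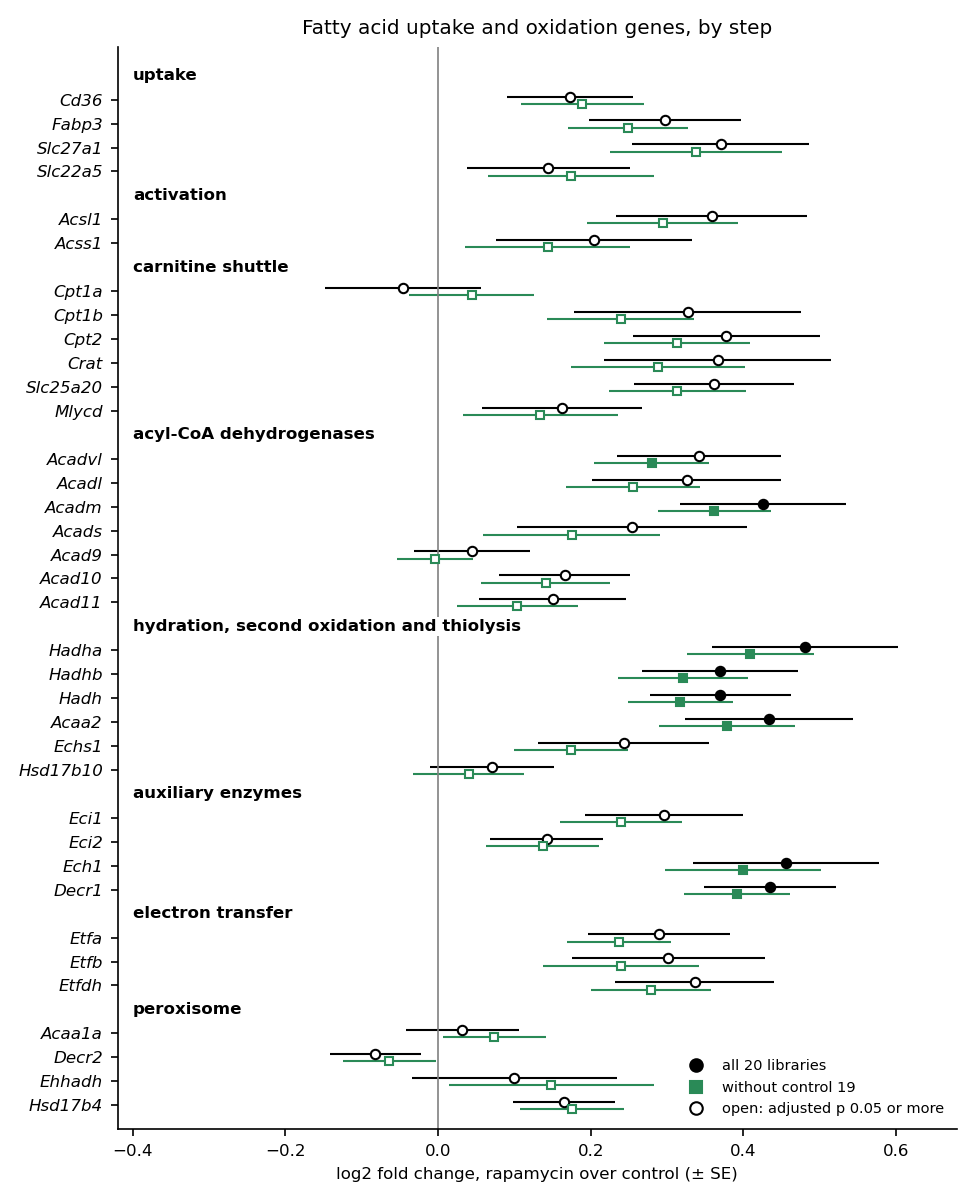
Log2 fold change of rapamycin over control with its standard error (horizontal axis) for the 36 genes, grouped by step. Black circles are the fit of all 20 libraries, green squares the fit without control 19, and filled symbols have an adjusted p under 0.05. The 7 filled circles lie in 3 steps, and the peroxisomal step has the lowest median, 0.07. The open circle of Cpt2 in the carnitine shuttle lies at 0.38, beside the filled circle of Hadhb at 0.37.

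Upstream sequence is shown for the genes that rose and have an entry in the RefSeq promoter table, so that genes that rose can be read side by side. Entries were found for 30 of the 36 genes. Acaa2 and Decr1 are not shown. Each line gives the 250 bases before the RefSeq start on GRCm38.p6, 5′ to 3′ on the gene's strand. Acadm is at chr3:153944644-153944893 on the minus strand, Hadhb at chr5:30155003-30155252 on the plus strand, Hadh at chr3:131272102-131272351 on the minus strand, and Ech1 at chr7:28825088-28825337 on the plus strand. Capitals mark matches on either strand to AGGTCA, the half-site of many nuclear receptors, or to GGGCGG, a GC box.
Acadm: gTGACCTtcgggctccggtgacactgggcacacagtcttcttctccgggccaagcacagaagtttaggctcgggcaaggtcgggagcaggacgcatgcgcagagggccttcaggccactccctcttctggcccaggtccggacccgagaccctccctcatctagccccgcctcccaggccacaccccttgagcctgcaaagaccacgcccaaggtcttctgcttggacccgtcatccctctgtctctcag
Hadhb: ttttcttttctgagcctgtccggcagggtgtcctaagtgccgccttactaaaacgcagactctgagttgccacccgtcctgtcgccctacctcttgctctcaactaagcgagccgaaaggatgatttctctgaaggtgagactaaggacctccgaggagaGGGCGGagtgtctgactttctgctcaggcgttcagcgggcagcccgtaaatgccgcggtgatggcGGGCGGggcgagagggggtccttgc
Hadh: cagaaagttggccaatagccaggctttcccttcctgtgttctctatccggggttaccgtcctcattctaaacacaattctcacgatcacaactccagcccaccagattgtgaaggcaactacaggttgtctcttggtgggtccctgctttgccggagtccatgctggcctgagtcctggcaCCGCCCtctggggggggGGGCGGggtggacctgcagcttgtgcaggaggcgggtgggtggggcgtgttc
Ech1: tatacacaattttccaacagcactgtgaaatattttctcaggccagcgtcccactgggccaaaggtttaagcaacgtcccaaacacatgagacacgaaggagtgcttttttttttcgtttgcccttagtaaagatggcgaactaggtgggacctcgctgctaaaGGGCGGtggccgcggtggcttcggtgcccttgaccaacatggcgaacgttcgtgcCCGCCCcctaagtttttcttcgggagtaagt
Acadm alone of these 4 has an AGGTCA match, at the far end of the window, and the other 3 have 2 GGGCGG matches each. Hadha and Hadhb are neighbours in opposite directions. Their RefSeq starts on chromosome 5 lie 273 bases apart, and the 250-base windows of both genes share 228 bases, so the Hadhb line covers most of the Hadha window as well.

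Over the list, AGGTCA was matched in 5 of 30 genes (16.7%), namely Acadm, Acadvl, Cd36, Cpt1a and Echs1, and in 14.0% of all 32851 windows. GGGCGG was matched in 22 of 30 genes (73.3%) and in 32.7% of all windows. The direct repeat of AGGTCA with a gap of 1 base, known as DR1, was matched in 0 of 30 genes and 0.0335% of all windows. TCAAGGTCA, an extended half-site that also contains AGGTCA, was matched in 0 of 30 genes and 0.387% of all windows. The median GC content was 59.6% over the 33 windows of the list and 52.4% over all. The list is counted by gene, with 33 windows for 30 genes, and the background by window, so the 2 shares are not on the same scale. The background was also not limited to genes tested here. These are matches of letters only.

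All 4 genes of uptake and binding had a fitted difference above 0, and 0 of them passed edgeR's test with or without control 19. At an unadjusted p under 0.05, 3 were higher, where 8.21% of all genes were. DESeq2 and limma voom each called 2, where they called 2.31% and 3.00% of all genes higher. The median log2 fold change was 0.24, or 0.22 without that library. Cd36, the main fatty acid translocase of the muscle cell surface, had normalised CPM of 1726 at the lowest, 2023 at the median and 2405 at the highest in controls. With rapamycin these were 1990, 2218 and 2832, and only 2 rapamycin libraries lay above every control. The fitted log2 fold change was 0.17 ± 0.08 (SE; adjusted p = 0.226, edgeR quasi-likelihood test) and 0.19 without control 19 (adjusted p = 0.195).

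Slc27a1 encodes FATP1, a transport protein with acyl-CoA synthetase activity, and had the smallest p of the uptake genes. Its lowest, median and highest levels were 118, 150 and 200 normalised CPM in controls and 141, 192 and 260 with rapamycin. Of the 10 rapamycin libraries, 4 exceeded every control. The log2 fold change was 0.37 ± 0.12 (adjusted p = 0.0742, edgeR) and 0.34 without control 19 (adjusted p = 0.0938). Fabp3, the heart fatty acid binding protein, had a log2 fold change of 0.30 ± 0.10 (adjusted p = 0.0898), and Slc22a5, the plasma membrane carnitine transporter, one of 0.14 ± 0.11 (adjusted p = 0.447).

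Activation was covered by Acsl1, the main long-chain acyl-CoA synthetase of the heart, and Acss1, a mitochondrial acetyl-CoA synthetase, and neither passed edgeR's test. At an unadjusted p under 0.05, 1 of the 2 was higher (8.21% of all genes). DESeq2 called 0 (2.31% of all genes) and limma voom 1 (3.00%). Acsl1 ranged from 344 to 895 normalised CPM in controls with a median of 618, and from 594 to 940 with rapamycin with a median of 830. The lowest control value was that of control 19, and the next lowest was 535. The log2 fold change of Acsl1 was 0.36 ± 0.13 (adjusted p = 0.104, edgeR) and 0.29 without control 19 (adjusted p = 0.0962). For Acss1 it was 0.20 ± 0.13 (adjusted p = 0.366).

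In the carnitine shuttle 0 of 6 genes passed edgeR's test in either fit, and 4 were higher at an unadjusted p under 0.05. Of all genes 8.21% were higher at that level. DESeq2 called 2 (2.31% of all genes) and limma voom 4 (3.00%). The step's median log2 fold change was 0.34, and 0.26 without control 19. Slc25a20, the carnitine-acylcarnitine carrier of the inner membrane, came nearest to the threshold. It ranged from 73.3 to 150 normalised CPM in controls with a median of 114, and from 103 to 161 with rapamycin with a median of 149. Control 19 and rapamycin 5 were the lowest library of their groups, and 5 rapamycin libraries exceeded every control. For Slc25a20 the log2 fold change was 0.36 ± 0.10 (adjusted p = 0.0553, edgeR) and 0.31 without control 19 (adjusted p = 0.0548).

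The 2 carnitine palmitoyltransferases of the outer membrane differed in level and in the sign of the fitted difference. Cpt1b, the muscle form, ranged from 120 to 427 normalised CPM in controls with a median of 311, and from 249 to 441 with rapamycin with a median of 396. Its log2 fold change was 0.33 ± 0.15 (adjusted p = 0.203, edgeR) and 0.24 without control 19 (adjusted p = 0.168). Cpt1a, the liver form, ranged from 53.4 to 100.3 in controls with a median of 62.0, and from 50.2 to 85.6 with rapamycin with a median of 61.9. Control 19 was the highest control for Cpt1a and the lowest for Cpt1b. The log2 fold change of Cpt1a was -0.05 ± 0.10 (adjusted p = 0.834), and 0.04 without control 19 (adjusted p = 0.833), so its sign turned with 1 library. It turned as well in limma voom, without the lung-transcript libraries and with a muscle covariate.

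The ratio of Cpt1b to Cpt1a in normalised CPM was 4.77 ± 1.47 in controls (SD, n = 10) and 6.01 ± 1.35 with rapamycin (n = 10). It was 1.19 in control 19, and the mean of the other controls was 5.17 ± 0.81 (n = 9). The ranges of the diets overlapped, and no test was made of the ratio. Of the remaining shuttle genes, Cpt2, the inner-membrane transferase, had a log2 fold change of 0.38 ± 0.12 (adjusted p = 0.0828). Crat, carnitine acetyltransferase, had one of 0.37 ± 0.15 (adjusted p = 0.156). Mlycd, which breaks down the shuttle inhibitor malonyl-CoA, had one of 0.16 ± 0.10 (adjusted p = 0.378). In the GENCODE annotation of GRCm38, 81.4% of the exon bases of Cpt1b are shared with the gene model Gm44502 on the same strand, so reads of those 2 models cannot be told apart.

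Among the acyl-CoA dehydrogenases, which act on chains of different length, the medium-chain enzyme rose with all 20 libraries and the very-long-chain enzyme joined it without control 19. Acadm, the medium-chain dehydrogenase, had a lowest, median and highest level of 519, 958 and 1209 normalised CPM in controls and of 994, 1319 and 1454 with rapamycin. All but 2 rapamycin libraries lay above the highest control, and the lowest rapamycin library was rapamycin 5. Acadm rose by a log2 fold change of 0.43 ± 0.11 (adjusted p = 0.0358, edgeR), a fold of 1.34. Without control 19 the value was 0.36 (adjusted p = 0.0119).

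Acadvl, the very-long-chain enzyme of the inner membrane, ranged from 455 to 988 normalised CPM in controls with a median of 832, and from 737 to 1123 with rapamycin with a median of 1084. Of the rapamycin libraries, 7 exceeded every control, and rapamycin 5, the lowest, lay below the median control. The log2 fold change was 0.34 ± 0.11 with all libraries (adjusted p = 0.0743, edgeR) and 0.28 ± 0.08 without control 19 (adjusted p = 0.0417). The difference was smaller without that library while its standard error also shrank. In the same annotation 42.9% of the exon bases of Acadvl lie opposite exons of Dvl2, which averaged 6.96 CPM in controls and 7.56 with rapamycin.

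Acadl, the long-chain enzyme, had a lowest, median and highest level of 343, 680 and 924 normalised CPM in controls and of 662, 847 and 962 with rapamycin. For Acadl the log2 fold change was 0.33 ± 0.12 (adjusted p = 0.131, edgeR) and 0.26 without control 19 (adjusted p = 0.104). Acads, the short-chain enzyme, ranged from 49.4 to 139 in controls with a median of 109.6, and from 75.6 to 158 with rapamycin with a median of 131. That of Acads was 0.25 ± 0.15 (adjusted p = 0.331) and 0.18 without control 19 (adjusted p = 0.44). The ratio of Acadm to Acads was 9.10 ± 1.88 in controls (SD, n = 10) and 10.2 ± 1.92 with rapamycin (n = 10), with no test made. For Acad9, Acad10 and Acad11 the log2 fold changes ran from 0.04 to 0.17, and none passed the test. Acad9, a dehydrogenase that also helps assemble respiratory complex I, stood at 0.04 with all libraries and -0.0043 without control 19.

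Hydration, the second oxidation and thiolysis held 4 of the 7 genes that rose, out of 6 in the step, where 0.689% of all genes rose. The step's median log2 fold change was 0.37, and 0.32 without control 19. Hadha and Hadhb encode the alpha and beta subunits of the mitochondrial trifunctional protein, which carries out these reactions on long chains. Hadha ranged from 453 to 1082 normalised CPM in controls with a median of 924, and from 868 to 1512 with rapamycin with a median of 1271. Of the 10 rapamycin libraries, 9 lay above every control and rapamycin 5 lay within the controls. Hadha rose by a log2 fold change of 0.48 ± 0.12 (adjusted p = 0.0342, edgeR), a fold of 1.395 and the highest of the 36 genes. Without control 19 it was 0.41 (adjusted p = 0.0116).

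Hadhb ranged from 224 to 464 normalised CPM in controls with a median of 347, and from 349 to 538 with rapamycin with a median of 440. Here 4 rapamycin libraries lay above every control. Hadhb rose by a log2 fold change of 0.37 ± 0.10 (adjusted p = 0.0477, edgeR), and by 0.32 without control 19 (adjusted p = 0.0392). The ratio of Hadha to Hadhb was 2.61 ± 0.33 in controls (SD, n = 10) and 2.82 ± 0.19 with rapamycin (n = 10). These are the divergent pair whose upstream windows overlap in the sequences above.

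Hadh, the hydroxyacyl-CoA dehydrogenase for shorter chains, had a lowest, median and highest level of 249.7, 403 and 475 normalised CPM in controls and of 402, 526 and 598 with rapamycin. All rapamycin libraries but rapamycin 5 lay above every control. Hadh rose by a log2 fold change of 0.37 ± 0.09 (adjusted p = 0.0321, edgeR), and by 0.32 without control 19 (adjusted p = 0.0144). Acaa2, the thiolase that releases acetyl-CoA, went from 311, 499 and 709 in controls to 493, 715 and 819 with rapamycin, and 5 rapamycin libraries lay above every control. Acaa2 rose by a log2 fold change of 0.43 ± 0.11 (adjusted p = 0.0339), and by 0.38 without control 19 (adjusted p = 0.0212).

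The other 2 genes of the step did not pass the test. Echs1, the short-chain enoyl-CoA hydratase, had a log2 fold change of 0.24 ± 0.11 (adjusted p = 0.21, edgeR). Hsd17b10, a short-chain dehydrogenase that also acts on branched-chain and steroid substrates, had one of 0.07 ± 0.08 (adjusted p = 0.648).

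**Figure D2:**
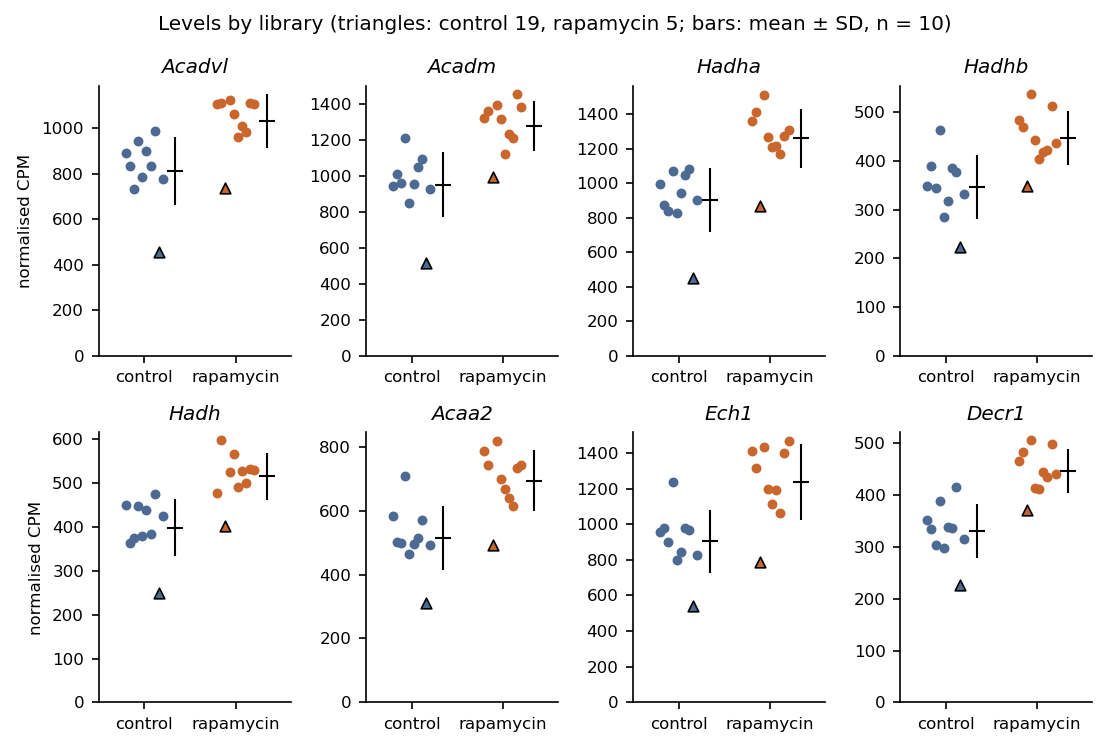
Normalised CPM (vertical axes, starting at 0) in the 10 control and 10 rapamycin libraries for the 8 genes that rose in the fit of all libraries or in the fit without control 19. Each point is 1 library, triangles are control 19 and rapamycin 5, and bars are the mean ± SD. Control 19 is the lowest control and rapamycin 5 the lowest rapamycin library in all 8 panels.

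The auxiliary enzymes, which handle the double bonds of unsaturated chains, included 2 genes that rose out of 4 (0.689% of all genes). Decr1, the mitochondrial dienoyl-CoA reductase, had the smallest adjusted p of the list. Its level was 226 normalised CPM at the lowest, 335 at the median and 416 at the highest in controls, and 371, 443 and 507 with rapamycin. Of the controls, 8 lay below every rapamycin library, and 7 rapamycin libraries lay above every control. Decr1 rose by a log2 fold change of 0.43 ± 0.09 (adjusted p = 0.0144, edgeR), a fold of 1.35, and by 0.39 without control 19 (adjusted p = 0.0064). It was also the 1 gene of the list that passed the test in all 20 fits that left out a single library, with a highest adjusted p of 0.0329.

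Ech1, which shifts the double bonds of dienoyl-CoA, had a lowest, median and highest level of 539.9, 929 and 1236 normalised CPM in controls and of 785, 1256 and 1468 with rapamycin. Of the rapamycin libraries, 5 lay above every control, while rapamycin 5 lay below the control median. Ech1 rose by a log2 fold change of 0.46 ± 0.12 (adjusted p = 0.0427, edgeR), and by 0.40 without control 19 (adjusted p = 0.0322). The enoyl-CoA isomerases Eci1 and Eci2 had log2 fold changes of 0.30 ± 0.10 (adjusted p = 0.104) and 0.14 ± 0.07 (adjusted p = 0.264).

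Electron transfer from the acyl-CoA dehydrogenases to ubiquinone runs through the flavoprotein subunits Etfa and Etfb and the oxidoreductase Etfdh. In edgeR 0 of the 3 passed the test, and all 3 were higher at an unadjusted p under 0.05 (8.21% of all genes). DESeq2 called 2 (2.31% of all genes) and limma voom 3 (3.00%). Etfdh ranged from 293 to 618 normalised CPM in controls with a median of 503, and from 447 to 737 with rapamycin with a median of 654. Of the rapamycin libraries, 6 lay above every control. The log2 fold change of Etfdh was 0.34 ± 0.10 (adjusted p = 0.0724, edgeR) and 0.28 without control 19 (adjusted p = 0.0522). For Etfa it was 0.29 ± 0.09 (adjusted p = 0.0804) and for Etfb 0.30 ± 0.13 (adjusted p = 0.166). Etfb shares 53.0% of its exon bases with the model Gm45233 on the same strand, so its value may include reads of that model.

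The peroxisomal genes had the lowest median log2 fold change of the 8 steps in both fits, 0.07 with all libraries and 0.11 without control 19. With the cardiomyocyte covariate described below, the step stood at 0.0998 and 3 steps were lower: activation at 0.057, acyl-CoA dehydrogenases at 0.085 and the carnitine shuttle at 0.095. In edgeR 0 of the 4 passed the test, and 1 was higher at an unadjusted p under 0.05 (8.21% of all genes). DESeq2 called 0 (2.31% of all genes) and limma voom 1 (3.00%). Hsd17b4, the peroxisomal D-bifunctional protein, ranged from 78.3 to 107.9 normalised CPM in controls with a median of 93.6, and from 86.8 to 114 with rapamycin with a median of 106. Its log2 fold change was 0.17 ± 0.07 (adjusted p = 0.156, edgeR) and 0.18 without control 19 (adjusted p = 0.15). Ehhadh, the L-bifunctional protein, stood at 0.10 ± 0.13 (adjusted p = 0.704) and Acaa1a, a peroxisomal thiolase, at 0.03 ± 0.07 (adjusted p = 0.843). Decr2, the peroxisomal dienoyl-CoA reductase, stood at -0.08 ± 0.06 (adjusted p = 0.438), beside 0.43 for its mitochondrial counterpart Decr1. The peroxisomal step was not tested against the other steps. The 26 genes from the shuttle to electron transfer had a median of 0.33, and 0.25 without control 19. They were grouped by step, and it was not checked that each of their products is confined to mitochondria. Eci2 (Peci in the count table) and Acad11, both among the 26, stood at 0.14 and 0.15.

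Levels of different genes can be compared roughly once CPM is divided by transcript length. The length used was that of the longest transcript marked as principal in the annotation, which need not be the form present here. Per kilobase, Fabp3 was the highest of the list in controls, at 1651 ± 274 normalised CPM per kb (SD, n = 10), and 2029 with rapamycin. Ech1 followed at 713 ± 139, Cd36 at 595 ± 72.3 and Acadm at 465 ± 89.0. Below Fabp3 the spreads of many neighbours in this order overlap, for example those of Acadm with Etfa at 412, Etfb at 384, Acadvl at 375 and Acadl at 351. The lowest was Acad10 at 4.39, with Ehhadh at 5.27, Decr2 at 7.24, Acad9 at 11.7 and Cpt1a at 15.4 above it. Cpt1b, at 104, was well above Cpt1a. Cpt1b and Etfb share exon bases with other gene models, as given above, so their levels may include reads of those models. The 7 genes that rose held ranks 2 to 17 of 36.

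**Figure D3:**
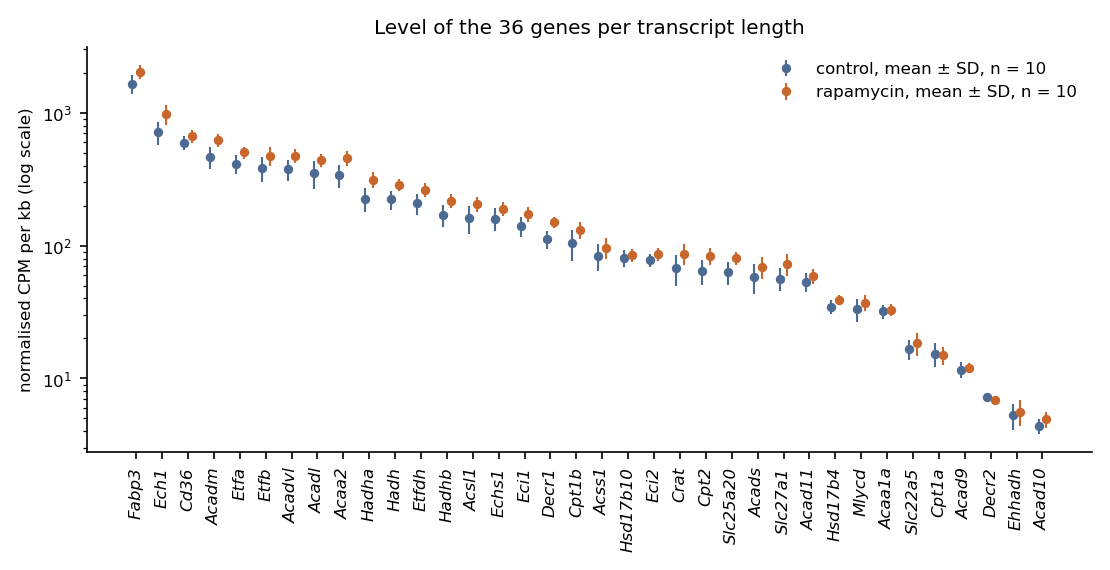
Normalised CPM per kilobase of transcript (vertical axis, log scale) for the 36 genes, ordered by the control mean. Points are means and bars SD over 10 libraries, control in blue and rapamycin in orange. Fabp3 leads at 1651 in controls, and Acad10 is lowest at 4.39.

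A few libraries held the end values of most genes. Control 19 was the lowest of all 20 libraries for 27 of the 36 genes and the highest control for Cpt1a, Acaa1a and Decr2. Rapamycin 5 was the lowest rapamycin library for 30 genes, and control 17 was the highest control for 19. Among the rapamycin libraries, rapamycin 6 was highest for 12 genes and rapamycin 4 for 9. Rapamycin 5 also had the highest sum in its group of fibroblast markers (3323 CPM, group median 1773) and of macrophage markers (935, group median 494). Its cardiomyocyte markers summed to 84380 CPM, against a group median of 91080.

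The mean of the 36 genes in log2 CPM was 7.67 ± 0.22 in controls (SD, n = 10), 7.73 ± 0.13 in controls without control 19 (n = 9) and 7.94 ± 0.15 with rapamycin (n = 10). The same mean over the 17 cardiomyocyte markers was 11.56 ± 0.47, 11.70 ± 0.15 and 11.91 ± 0.15. Both means were lowest in control 19, at 7.16 and 10.28. The difference between the 2 means was -3.97 ± 0.13 in controls without control 19 and -3.97 ± 0.11 with rapamycin. Every rapamycin library lay within the range of those 9 controls on this measure. With control 19 the control mean was -3.89 ± 0.29.

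When the cardiomyocyte marker mean was added to the fit as a covariate, 0 of the 36 genes passed the test, against a background of 0.0717%, or 10 genes. At an unadjusted p under 0.05, 11 of the 36 were higher and 1 lower, where 13.6% of all genes passed in either direction. The median log2 fold change of the list was then 0.13, with 30 genes above 0 (48.2% of all genes), and Decr1 stood at 0.30 (adjusted p = 0.0501, edgeR). Without control 19 as well, an alternative chosen after seeing the data, 0 passed again (background 0.0215%). In that fit 7 were higher and 2 lower at an unadjusted p under 0.05, where 15.1% of all genes passed in either direction. The number of genes above 0 was 25 of 36, against 51.0% of all genes, the median was 0.10 and Decr1 stood at 0.30 (adjusted p = 0.116, edgeR). The marker mean itself was higher with rapamycin, so the diet and the muscle share of the RNA cannot be told apart here. Of the other cell types, 0 of 8 endothelial, 0 of 7 fibroblast and 0 of 6 white adipocyte markers passed edgeR's test on all 20 libraries. The share over all genes was 3.36%. In that test 0 of these markers had an unadjusted p under 0.05, where 8.21% of all genes were higher and 13.5% lower. DESeq2 and limma voom called 0 of these markers as well, where they called 6.95% and 7.72% of all genes. The white adipocyte sums ran from 35.3 to 508 CPM in controls and from 24.6 to 507 with rapamycin. The brown adipocyte sums ran from 18.7 to 132 and from 32.2 to 199. The 6 skeletal muscle markers summed to 3.93 to 6.64 CPM in controls and 2.35 to 5.15 with rapamycin. Among them Myh1, Myh2 and Myh4 had a median count of 0, while Tnnt3 (11 to 31 counts) and Tnni2 (7 to 33 counts) were present in every library. Liver markers summed to at most 37.1 CPM in controls and 330 with rapamycin, in rapamycin 9. The part of other cell types in the differences of the list was not tested.

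**Figure D4:**
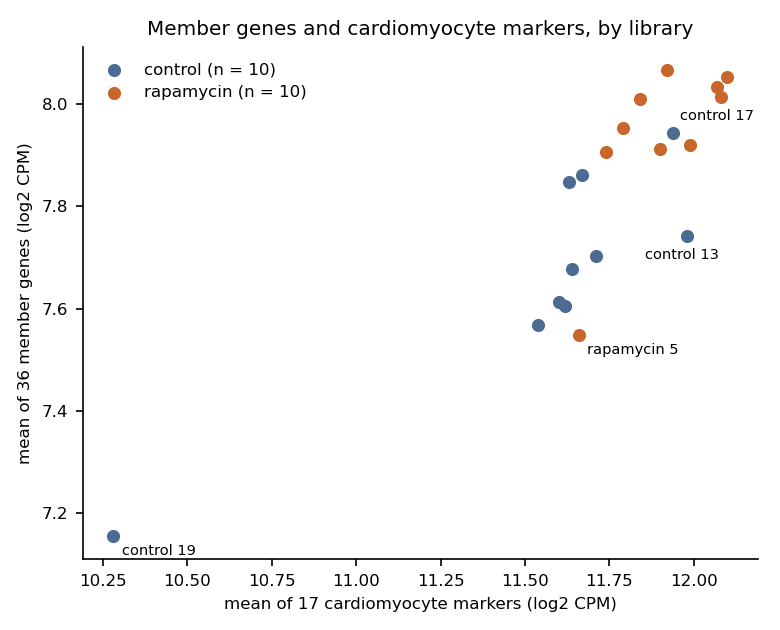
Mean log2 CPM of the 36 genes (vertical axis) against that of 17 cardiomyocyte markers (horizontal axis), 1 point a library, control in blue and rapamycin in orange. Control 19 lies apart at 10.28 and 7.16, rapamycin 5 is the lowest rapamycin library on both axes, and 6 rapamycin libraries have a mean of the 36 genes above the highest control.

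The number of genes that passed the test moved with single libraries and with the tool. Leaving out 1 library at a time gave from 1 to 15 genes. Decr1 alone passed without control 2, control 7 or control 11, and without rapamycin 4, rapamycin 6, rapamycin 12, rapamycin 15 or rapamycin 18. Of all genes, 0.293%, 0.322%, 0.250%, 0.171%, 0.200%, 0.186%, 0.321% and 0.164% rose in these 8 fits, in that order. The count was 4 without control 1 (0.458% of all genes) or rapamycin 3 (0.614%), and 3 without rapamycin 8 (0.399%) or rapamycin 9 (0.3%). It was 12 without control 17 (1.32%) and 15 without rapamycin 5 (1.41%). The rises over all genes thus went from 23 without rapamycin 18 to 197 without rapamycin 5, beside 1 and 15 of the list. The median log2 fold change ranged from 0.24 to 0.34 over these fits. Of the 20 fits, Hadha and Hadh lost the call in 9 each, Acadm and Acaa2 in 10 each, and Hadhb and Ech1 in 15 each. DESeq2 called 14 of the 36 higher (background 2.31%), and limma voom with sample weights called 21 (background 3.00%). Without the 4 libraries with lung transcripts (control 1, control 19, control 20 and rapamycin 15), Decr1, Hadh and Hadha rose (background 0.628%). With no filter on low counts 4 of the 36 rose (background 0.248%).

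**Figure D5:**
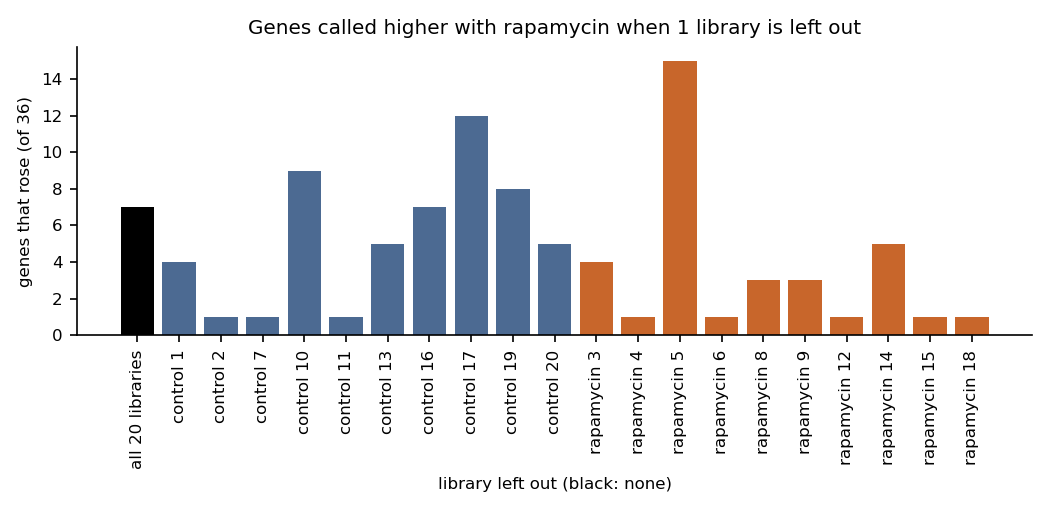
Number of the 36 genes that rose (vertical axis, adjusted p under 0.05 in edgeR) with all 20 libraries (black) and with 1 library left out (blue, a control; orange, a rapamycin library). The count runs from 1 to 15, with the highest bar without rapamycin 5.

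The rest of the pathway was read from 63 further genes, of which 61 were tested: lipoprotein and store lipolysis, other carriers and synthetases, malonyl-CoA synthesis, other peroxisomal enzymes, ketone bodies, propionyl-CoA, branched-chain dehydrogenases and regulators. With all libraries 0 of 61 passed edgeR's test, 7 were higher and 4 lower at an unadjusted p under 0.05, and their median log2 fold change was 0.10. Over all genes 3.36% passed edgeR's test, and 8.21% were higher and 13.5% lower at an unadjusted p under 0.05. DESeq2 called 2 and limma voom 4, where they called 6.95% and 7.72% of all genes in either direction. Phyh, the peroxisomal phytanoyl-CoA hydroxylase, was the 1 gene of the 61 that passed without control 19, where 3.38% of all genes passed. It went from 204, 387 and 470 normalised CPM (lowest, median, highest) in controls to 373, 479 and 538 with rapamycin, with 5 rapamycin libraries above every control. Its log2 fold change was 0.33 ± 0.11 (adjusted p = 0.0839, edgeR), and 0.27 without control 19 (adjusted p = 0.0452).

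Ppara, the nuclear receptor that drives many genes of fatty acid oxidation, ranged from 39.6 to 124 normalised CPM in controls with a median of 91.3, and from 81.0 to 122 with rapamycin with a median of 110. Its log2 fold change was 0.23 ± 0.13 (adjusted p = 0.305, edgeR) and 0.15 without control 19 (adjusted p = 0.324). Ppargc1a, a coactivator of mitochondrial genes, ranged from 50.1 to 152 in controls with a median of 107, and from 105 to 137 with rapamycin with a median of 118. The difference was 0.19 ± 0.12 on the log2 scale (adjusted p = 0.361) and 0.12 without control 19 (adjusted p = 0.461). Neither of these 2 regulators passed the test, and in both the lowest library was control 19. Of the 12 regulators tested, 11 lay above 0 and 1 below, where 47.5% of all genes lay above 0. With the cardiomyocyte covariate 4 of the 12 lay above 0 (48.2% of all genes), and their median was -0.038. In edgeR without that covariate, 0 of the 12 passed the test with or without control 19. Of all genes 3.36% passed with all libraries and 3.38% without control 19. Ppargc1b had the highest log2 fold change of the 12, 0.37 ± 0.12 (adjusted p = 0.0833, edgeR). Without control 19 it was 0.30 (adjusted p = 0.0548). DESeq2 and limma voom called Ppargc1b higher, where they called 2.31% and 3.00% of all genes higher.

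The authors' deposited table of 700 genes, whose rule of selection is not stated in the labels, holds 11 of the 36 genes. These are Slc27a1, Slc25a20, Acadvl, Acadm, Hadha, Hadhb, Hadh, Acaa2, Ech1, Decr1 and Etfdh. Of all genes tested here, 4.99% are in the authors' deposited table. It was made from the same 20 libraries and holds 400 of the 469 genes that passed here, so the overlap is not separate evidence. It holds 0 of the 63 further pathway genes.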

How the data were processed

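The authors deposited raw read counts per gene symbol for 20 heart libraries and a table of 700 genes in CPM. Per the labels' design text, 50-base paired reads were mapped to unique sites of MGSCv37. Aligner, counter and strand setting: not given in the sources used here. Overlapping or antisense genes may therefore share reads. The submitters' processing notes name edgeR, with no role. The deposited CPM were used only to see which genes that table holds.

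Counts were fitted with edgeR 4.0.16 (filterByExpr, TMM scaling, quasi-likelihood test, R 4.3.3) on all 20 libraries with diet as the single term, and p-values were adjusted by Benjamini-Hochberg over all 13940 genes tested. Each standard error was taken as |log2 fold change| over root F. TMM scaling underlies normalised CPM, and log2 CPM have 2 added as prior count. Lengths come from GENCODE M21 and upstream sequence from RefSeq GRCm38.p6, neither of them the authors' build. Every pair of libraries from the same diet (90 pairs) differed by more than counting noise, with a chi-square of at least 5.72 a degree of freedom. On simulated counts with 200 changed genes among 13889, the test recovered 20% of changes of 0.3 on the log2 scale, 52% of 0.4, 78% of 0.6 and 88% of 0.8, and 4.8% of its calls were false.

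The genes, the marker and pathway lists and control 19 as a library to leave out were chosen with earlier results of these data known. All 36 genes are placed by step. Full values are given for those that passed either fit, the smallest p of each step, and Cd36, Cpt1a, Cpt1b, Acadvl, Acadl, Acadm, Acads and Slc25a20. Further pathway genes are described if they passed either fit, with Ppara and Ppargc1a added. Ppargc1b was added later as the regulator with the highest log2 fold change. Others are only named where an alternative called them. Alternatives were DESeq2 1.42.0, limma 3.58.1 voom, other scalings, no filter, a cardiomyocyte marker covariate and leaving out libraries.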

Additional observations from a re-analysis of the deposited data

Results flagged for a closer look

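Libraries far from the rest of their own diet group were sought by the gap between the end value and its neighbour, over the range of the group, in log2 CPM. Of 78 groups examined (36 genes and 3 further pathway genes, 2 diets), 34 held such a library, and chance gives about 1 in 20. The genes share libraries, so these are not 34 separate events. Each is control 19 or rapamycin 5.

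Control 19 was far below the other controls, with a log2 CPM of 9.78 for Fabp3, 6.91 for Cpt1b, 6.38 for Cpt2, 7.04 for Crat, 8.83 for Acadvl, 8.42 for Acadl and 9.02 for Acadm. It was also low at 5.63 for Acads, 4.90 for Acad9, 6.93 for Acad11, 8.82 for Hadha, 7.96 for Hadh, 8.28 for Acaa2 and 7.01 for Echs1. The same held at 6.58 for Eci1, 9.08 for Ech1, 8.48 for Etfa, 7.59 for Etfb, 8.20 for Etfdh, 7.67 for Phyh and 5.31 for Ppara. For Cpt1a it was far above the other controls, at 6.65 against a next value of 6.21.

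Rapamycin 5 was far below the other rapamycin libraries, with a log2 CPM of 7.96 for Cpt1b, 6.96 for Cpt2, 7.78 for Crat, 6.68 for Slc25a20, 9.53 for Acadvl, 6.24 for Acads and 9.76 for Hadha. It was likewise low at 7.73 for Echs1, 7.10 for Eci1, 9.62 for Ech1, 8.04 for Etfb and 8.80 for Etfdh. Decr1 and Hadhb, which rose, had no library this far from the others in either group.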

How the results depend on the processing

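No paired analysis was possible because each replicate number occurs in 1 diet group only. Over all genes, 469 passed with the settings of the report, 1332 with library totals alone, 969 with DESeq2, 1076 with limma voom, 280 without the 4 libraries with lung transcripts, 62 with the cardiomyocyte covariate and 17 with that covariate and no control 19. Of the 36 genes, 4 rose with no filter on low counts, 14 with DESeq2, 21 with limma voom, 3 without the 4 libraries and 0 with either covariate fit. Of the further pathway genes, 2 passed with library totals, Gpihbp1 and Slc27a3, both below 0 with the settings of the report. DESeq2 called 2, Phyh and Ppargc1b, and limma voom 4, these 2 with Acacb and Lpl. All of these lay above 0 with the settings of the report. Leaving out 1 library gave 165 to 791 genes over all, 1 to 15 of the 36 and 0 to 1 further gene.

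Signs turned under at least 1 alternative for 12 of the 36 genes and for Ppara and Ppargc1a, 11 of the 36 in the covariate fit without control 19 alone. No value that turned passed the test in either setting. Library totals gave -0.072 for Acad9, -0.048 for Hsd17b10, -0.10 for Acaa1a and -0.025 for Ehhadh. For Cpt1a the value was 0.032 in limma voom, 0.085 without the 4 libraries, 0.11 with the covariate and 0.071 with the covariate and no control 19. Leaving out 1 library gave Cpt1a -0.094 to 0.044, above 0 without control 19, and Acad9 -0.0043 (without control 19) to 0.071. The covariate gave -0.024 for Acss1, -0.037 for Acads, -0.12 for Acad9, -0.0095 for Acad11, -0.060 for Hsd17b10, -0.026 for Ppara and -0.0052 for Ppargc1a. The covariate without control 19 gave -0.11 for Acss1, -0.010 for Cpt1b, -0.070 for Mlycd, -0.11 for Acads, -0.12 for Acad9, -0.036 for Acad11, -0.0074 for Echs1, -0.14 for Hsd17b10, -0.025 for Etfb and -0.084 for Acaa1a. The cause was not tested in any of these. On simulated counts 20% of changes of 0.3 on the log2 scale, near the median of the list, were recovered. Those counts held no library set apart like control 19. The changed genes were drawn at random, not matched in level to the list, and each gene was simulated on its own. The recovered share therefore need not hold for the list. A gene that misses the threshold is not shown to be equal between the diets.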
